A study of Homo sapiens with 48 samples.

Results

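The genes described here encode the subunits, activators and assembly factors of the proteasome. They were chosen by symbol: every probe of the array whose gene symbol is PSMA, PSMB, PSMC, PSMD, PSME, PSMF or PSMG followed by digits only, plus POMP. The rule found 44 genes, read by 68 probes, among 18852 genes that a probe with a single gene symbol names. PSMA7, PSMC5, PSMD7, PSMD13 and PSMG4 have no probe named by the annotation used here and were not analysed here.

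The 26S proteasome breaks down proteins tagged with ubiquitin. Its core particle stacks alpha and beta rings around a closed chamber, in which the beta subunits PSMB5, PSMB6 and PSMB7 cut the substrate. A regulatory cap of ATPases (PSMC genes) and non-ATPase subunits (most PSMD genes) binds the ubiquitin chain, unfolds the substrate and opens the alpha ring. Cells of the immune system, and other cells under interferon, build an alternative core, the immunoproteasome, in which PSMB8, PSMB9 and PSMB10 take the places of PSMB5, PSMB6 and PSMB7 and whose peptides feed antigen presentation on HLA class I molecules.

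Illumina bead arrays read the RNA of Huh7, a human hepatoma line, and THP1, a human monocytic leukaemia line. Each line received 1 of 3 siRNAs: INTG, directed at the transcript between C5 and TRAF1 on chromosome 9, or the negative controls NC1 and NC2. All 6 groups shared the same handling, with 300000 cells per well, 50 pmol siRNA in a lipid transfection reagent and collection after 2 days, and no untransfected group was analysed here. Each group holds 8 arrays, 2 wells in each of 4 experiments done on separate culture passages, so that n is 4 experiments. Experiments 1 and 2 (discovery) and experiments 3 and 4 (validation) of a line each filled 1 slide of 12 arrays. A slide held 1 line and all 3 siRNAs, so slide and line cannot be told apart. Within a slide the array positions followed the siRNA, in an order that differed between discovery and validation slides. Position and siRNA thus overlapped in part, and an effect of position was not tested. The targeted transcript has no named probe, so its own fall was not measured here.

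Mean array signals lay between 240.6 and 396.8 in Huh7 and between 122.2 and 478.2 in THP1. The dimmest were the INTG arrays of THP1 experiment 4, with a mean of 122.9 against 269.5 (NC1) and 262.8 (NC2) and 8587 to 8784 detected probes. In Huh7 the INTG arrays were dimmer than NC1 in experiments 2 to 4 (257.6 against 324, 267.7 against 381.4 and 264.7 against 371.8). All 9 hepatocyte markers with a probe were detected on every Huh7 array, with a summed signal of 112300 to 156800, and the sum in THP1 was 212 to 254.3. Of 11 monocytic markers, 8 were detected on every THP1 control array, among them SPI1, CSF1R, FCER1G and TYROBP, which were detected on no Huh7 array. The 4 monocytic markers detected on every Huh7 array were CD14, LYZ, LYN and CD68. Of the 11, 8 were lower in Huh7 and 2 were higher there, CD14 by 1.07 and LYZ by 2.48 on the log2 scale (adjusted p = 0.0111 and 0.0105). With INTG in Huh7, CD14 differed by -0.76 and LYZ by 0.55 (adjusted p = 9.74e-05 and 0.000368), and their part in the results was not tested.

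The sequence that INTG was designed against is shown because the comparisons below rest on it. It is 21 bases long, and no sequence of the control siRNAs was used here.
INTG target: aactacgtgaagaggcctctg

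Promoters are shown for PSMB8, PSMB9, PSMB10 and PSME2, which were among the 8 genes called lower in Huh7 (below). The others of these, PSMA5, PSMD6, PSME1 and PSMG1, are not shown. Each run is the 250 bases before a RefSeq start site in GRCh38.p14, written 5′ to 3′ on the gene's own strand. Capitals mark matches, on either strand, to a GAS-like motif (TTCNNNGAA), an ISRE-like motif (GAAANNGAAA), a CCAAT box (CCAAT) or a motif like the antioxidant element (TGACNNNGC). The first 2 are the core letters of elements known to bind STAT dimers and interferon regulatory factors. PSMB8 has 2 listed starts.
PSMB8, upstream start (chr6:32844680-32844929, minus strand): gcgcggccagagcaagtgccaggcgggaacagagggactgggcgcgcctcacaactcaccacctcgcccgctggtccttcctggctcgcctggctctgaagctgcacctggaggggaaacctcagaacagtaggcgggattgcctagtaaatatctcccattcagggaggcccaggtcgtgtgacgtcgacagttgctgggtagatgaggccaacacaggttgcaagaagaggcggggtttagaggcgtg
PSMB8, downstream start (chr6:32844048-32844297, minus strand): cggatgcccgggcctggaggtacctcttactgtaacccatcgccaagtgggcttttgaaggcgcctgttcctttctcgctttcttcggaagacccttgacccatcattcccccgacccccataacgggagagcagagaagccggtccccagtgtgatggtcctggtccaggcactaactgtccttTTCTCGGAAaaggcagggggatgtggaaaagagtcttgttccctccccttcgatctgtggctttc
PSMB9 (chr6:32853942-32854191, plus strand): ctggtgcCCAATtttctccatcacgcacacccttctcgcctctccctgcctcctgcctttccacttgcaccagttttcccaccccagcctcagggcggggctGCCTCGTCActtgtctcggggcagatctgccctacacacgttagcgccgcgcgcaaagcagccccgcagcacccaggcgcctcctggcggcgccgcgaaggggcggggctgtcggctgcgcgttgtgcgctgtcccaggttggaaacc
PSMB10 (chr16:67936851-67937100, minus strand): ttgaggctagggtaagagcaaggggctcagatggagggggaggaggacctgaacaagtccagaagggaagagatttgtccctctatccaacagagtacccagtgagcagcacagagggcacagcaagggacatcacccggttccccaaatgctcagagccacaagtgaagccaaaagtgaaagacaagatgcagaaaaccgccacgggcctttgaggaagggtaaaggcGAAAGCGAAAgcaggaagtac
PSME2 (chr14:24146611-24146860, minus strand): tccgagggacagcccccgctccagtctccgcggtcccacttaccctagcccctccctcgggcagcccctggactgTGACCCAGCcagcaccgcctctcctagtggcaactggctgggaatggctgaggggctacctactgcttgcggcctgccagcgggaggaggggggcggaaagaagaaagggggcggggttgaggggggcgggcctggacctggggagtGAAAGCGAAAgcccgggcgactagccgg
An ISRE-like match began at base -21 from the start of PSMB10 and at -28 from that of PSME2, and a GAS-like match at -65 from the downstream start of PSMB8. PSMB9 held a CCAAT box and an antioxidant-like match. PSMA5, PSMD6, PSME1 and PSMG1, also lower in Huh7, held no ISRE-like or GAS-like match. Promoters were found for 39 of the 44 genes, 47 starts in all. The ISRE-like motif was present in 8.51% of these 47 windows of 250 bases (PSMA4, PSMB4, PSMB10 and PSME2) and in 3.02% of all 35116 windows. The GAS-like motif was present in 14.9% of the 47 windows (PSMA2, PSMA8, PSMB5, PSMB8, PSMC4, PSMD3 and PSME3) against 6.57%. Of these genes PSMA2 and PSMB5 were called higher in Huh7 and PSMB8 lower (below). The CCAAT box was present in 36.2% against 32% and the antioxidant-like motif in 25.5% against 10.9%. The ISRE-like and GAS-like letters can overlap. A match describes these letters only.

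Levels are given as normalized log2 intensity, the mean of NC1 and NC2 in each experiment, and a detection p-value under 0.01 counts as detected. Of the 68 probes, 50 were detected on all 24 Huh7 arrays and 51 on all 24 THP1 arrays. Probes detected on at least 8 arrays of a line were tested there, which kept 52 probes of 39 genes in Huh7 and 57 probes of 41 genes in THP1. The 11 probes tested in neither line include the only probes of PSMA8, the testis-specific alpha subunit, of PSMB11, the thymus-specific beta subunit, and of PSMF1, a proteasome inhibitor. All 3 were detected on 0 of 48 arrays. Probe 1 of a gene is its brightest, and genes are counted by that probe. No probe's level is set against another's.

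The first comparison asked how the 2 lines differ in their proteasome genes without INTG. The catalytic subunits of the immunoproteasome were far higher in THP1, while those of the standard core were higher in Huh7. PSMB8, the inducible counterpart of PSMB5, read 11.83, 11.79, 11.76 and 11.90 in the 4 THP1 experiments and 5.34, 5.12, 5.06 and 4.87 in Huh7, where it was detected on 3 of 16 control arrays. PSMB8 was thus near background in Huh7, so its difference is a bound: at least 78.9-fold higher in THP1 (limma, Benjamini-Hochberg adjusted p = 1.57e-09). PSMB8 probes 2 and 3 were detected on no Huh7 control array and on all 16 of THP1, at least 44.1-fold and at least 8.16-fold higher in THP1 (adjusted p = 1.22e-09 and 3.06e-08, means 10.95 and 8.52, against 4.63 and 4.46). These bounds set the dim line, on each array, at the lowest signal among detected probes or at the probe's own signal if higher. An adjusted p beside a bound, here and below, comes from the fit of the normalized values and does not test the bound. Such probes entered that fit through their detection in THP1. Its probe 4 was detected on 1 of 16 THP1 control arrays and was not tested. In bulk RNA, fewer expressing cells and less RNA per cell cannot be told apart.

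PSMB9, which replaces PSMB6, read 9.76, 9.60, 10.03 and 10.28 in THP1 and 4.85, 4.61, 4.95 and 4.83 in Huh7, where it was detected on 1 of 16 control arrays. It was at least 21.3-fold higher in THP1 (adjusted p = 2.97e-08), with no overlap between the lines. Its probe 2 was dim in both lines, detected on 6 of 16 THP1 and 0 of 16 Huh7 control arrays, so no fold is given for it. PSMB10, which replaces PSMB7, was detected on every array of both lines. It read 12.14, 12.47, 12.43 and 12.18 in THP1 and 9.92, 10.02, 10.33 and 9.83 in Huh7. Of the 3 inducible catalytic subunits PSMB10 was the one detected throughout in Huh7, 4.86-fold lower than in THP1 (log2 difference -2.28, SE 0.253, adjusted p = 3.24e-05).

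The standard catalytic subunits ran the other way, and by less. PSMB6, the caspase-like subunit, read 13.16, 13.21, 13.07 and 12.90 in Huh7 and 11.67, 11.92, 11.95 and 11.90 in THP1. It was 2.34-fold higher in Huh7 (log2 difference 1.23, SE 0.188, adjusted p = 0.000338). PSMB7, the trypsin-like subunit, read 13.23, 13.36, 13.02 and 12.72 in Huh7 and 12.24, 12.32, 12.16 and 12.22 in THP1 (0.85, SE 0.21, adjusted p = 0.00655). PSMB5, the chymotrypsin-like subunit, read 12.62, 12.59, 12.40 and 12.27 in Huh7 and 11.89, 11.91, 11.74 and 11.68 in THP1 (0.66, SE 0.178, adjusted p = 0.0104). For each of the 6 catalytic genes the 4 experiments of one line lay apart from the 4 of the other, and none of these 6 calls was lost when any experiment was left out. With the arrays scaled to a common median, the calls of PSMB6, PSMB7 and PSMB5 were lost (adjusted p = 0.154, 0.409 and 0.486).

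**Figure D1:**
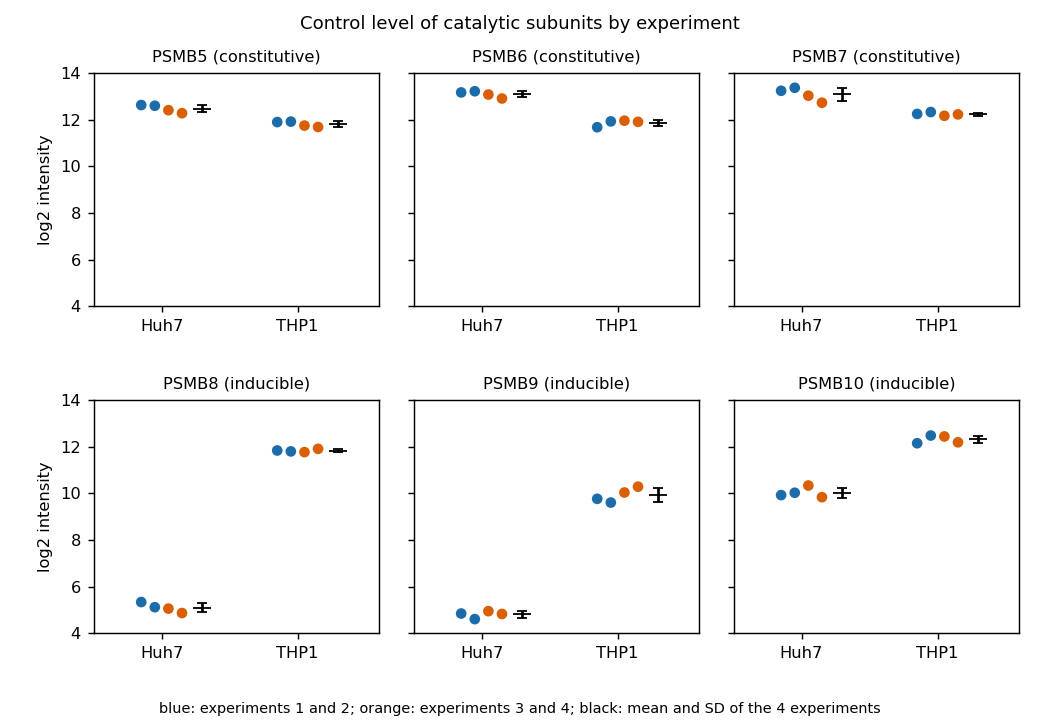
Control level (normalized log2 intensity, y axis) of the catalytic subunits in Huh7 and THP1. Each point is 1 experiment (mean of NC1 and NC2 arrays, blue for experiments 1 and 2, orange for 3 and 4), and black marks are the mean and SD of 4 experiments. PSMB8 and PSMB9 lie near 5 in Huh7, at the level of undetected probes, while PSMB5, PSMB6 and PSMB7 are above THP1 in every experiment.

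Of the 57 member probes tested, 24 differed between the lines, which is 42.1% of them, beside 49.8% of all 15860 probes tested. Of these, 11 were higher in Huh7 (19.3% of members, beside 25.0% of all probes) and 13 lower (22.8% beside 24.8%). The share of members called was thus no higher than that of the array as a whole, and the median absolute difference was 0.517 for members and 0.692 for all probes. Counted by gene, 10 of 41 were higher in Huh7 and 8 lower. With the arrays scaled to a common median in place of quantile normalization, 5 probes were called, 0 higher and 5 lower. Those 5 were the called probes of PSMB8, PSMB9 and PSMB10 apart from PSMB9 probe 2, and the calls of all other member genes were lost there. Sizes stayed close, such as 1.22 for PSMB6 and -0.89 for PSMD6.

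Among the constitutive beta subunits 4 of 7 were higher in Huh7 and 0 lower. The fourth was PSMB2, a non-catalytic beta subunit, at 12.23, 12.28, 11.80 and 11.79 in Huh7 against 11.13, 11.06, 10.89 and 11.15 in THP1 (0.97, SE 0.204, adjusted p = 0.00264). PSMB1, PSMB3 and PSMB4, also non-catalytic, read -0.04, 0.31 and 0.27 and did not pass. In the alpha ring, which gates the chamber, 1 of 6 genes was higher in Huh7 and 1 lower. PSMA2 differed by 0.62 (SE 0.211, adjusted p = 0.0319) and PSMA5 by -0.72 (SE 0.187, adjusted p = 0.00877). The remaining alpha genes lay between -0.31 and 0.20.

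Of the regulatory ATPases, 1 of 5 was higher in Huh7. PSMC2 read 12.15, 11.99, 11.94 and 11.91 there and 11.31, 10.96, 11.16 and 11.07 in THP1 (0.88, SE 0.199, adjusted p = 0.00407). PSMC4 was the ATPase with the widest spread. Its probe 1 read 9.08, 10.20, 11.09 and 9.99 in Huh7 and 8.27 to 10.55 in THP1. In THP1 both discovery experiments lay below both validation experiments, while in Huh7 experiment 2 lay above experiment 4. The mean of the discovery slide minus that of the validation slide was -0.89 in Huh7 and -1.96 in THP1. Probes 2 and 3 gave -0.88 and -0.81 in Huh7 and -1.99 and -1.09 in THP1. The line difference of 0.73 (SE 0.7) did not pass. For comparison, the median absolute difference between slides was 0.275 in Huh7 and 0.19 in THP1 over tested member probes, and 0.285 and 0.299 over all.

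Among 9 non-ATPase cap subunits, 2 were higher in Huh7 and 1 lower. PSMD1, a scaffold of the cap's base, differed by 0.71 (SE 0.183, adjusted p = 0.00858), and PSMD14, the deubiquitinase of the cap's lid, by 0.64 (SE 0.24, adjusted p = 0.0486). PSMD6, a lid subunit, read 10.58, 10.54, 10.38 and 10.26 in Huh7 and 11.65, 11.36, 11.33 and 11.12 in THP1 (-0.93, SE 0.21, adjusted p = 0.00407). Its probe 2 gave a similar size, -1.03 (SE 0.232, adjusted p = 0.0039). PSMD4, a ubiquitin receptor, read 0.26 and 0.12 with its 2 probes and did not pass.

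The assembly factors split. Of the 3 chaperones that build the base of the cap, PSMD5 and PSMD10 were higher in Huh7. PSMD5 read 8.09, 8.13, 8.86 and 8.53 in Huh7 and 6.90, 7.05, 7.60 and 7.55 in THP1 (1.13, SE 0.266, adjusted p = 0.00507). PSMD10, also known as the liver oncoprotein gankyrin, differed by 0.74 and 0.83 with probes 1 and 2 (adjusted p = 0.0269 and 0.0141), and its dim probe 3 by 0.43 (adjusted p = 0.161). PSMD9 read -0.22 and did not pass. Of the core's assembly factors, PSMG1 was lower in Huh7 at 9.34, 9.30, 9.45 and 9.32 against 10.39, 10.32, 10.05 and 10.08 in THP1 (-0.86, SE 0.175, adjusted p = 0.00218). Its probe 2 gave -1.06 (SE 0.203, adjusted p = 0.00141). PSMG3 read -0.64 (adjusted p = 0.0604) and PSMG2 -0.22.

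POMP, which helps the core mature and is needed for the immunoproteasome, read 12.17, 12.09, 11.85 and 11.94 in Huh7 and 11.94, 11.45, 11.50 and 11.52 in THP1. In THP1, experiment 1 was within the Huh7 range and the other 3 lay below all Huh7 values. The difference of 0.41 (SE 0.226, 95% interval -0.09 to 0.91, adjusted p = 0.157) did not pass. It passed without the slide as a block.

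The activators divided by kind. PSME1 and PSME2 form the interferon-inducible cap PA28, and both were lower in Huh7. PSME2 read 10.87 ± 0.0888 (SD, n = 4 experiments) in Huh7 and 11.65 ± 0.199 in THP1, where the lowest experiment was 11.48 (-0.78, SE 0.19, adjusted p = 0.00609). PSME1 differed by -0.58 (SE 0.2, adjusted p = 0.0346), and its probe 2 was dim in both lines and not tested. PSME3, the subunit of the nuclear PA28 cap, and PSME4, a large single-chain activator, read 0.35 and 0.36 and did not pass.

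**Figure D2:**
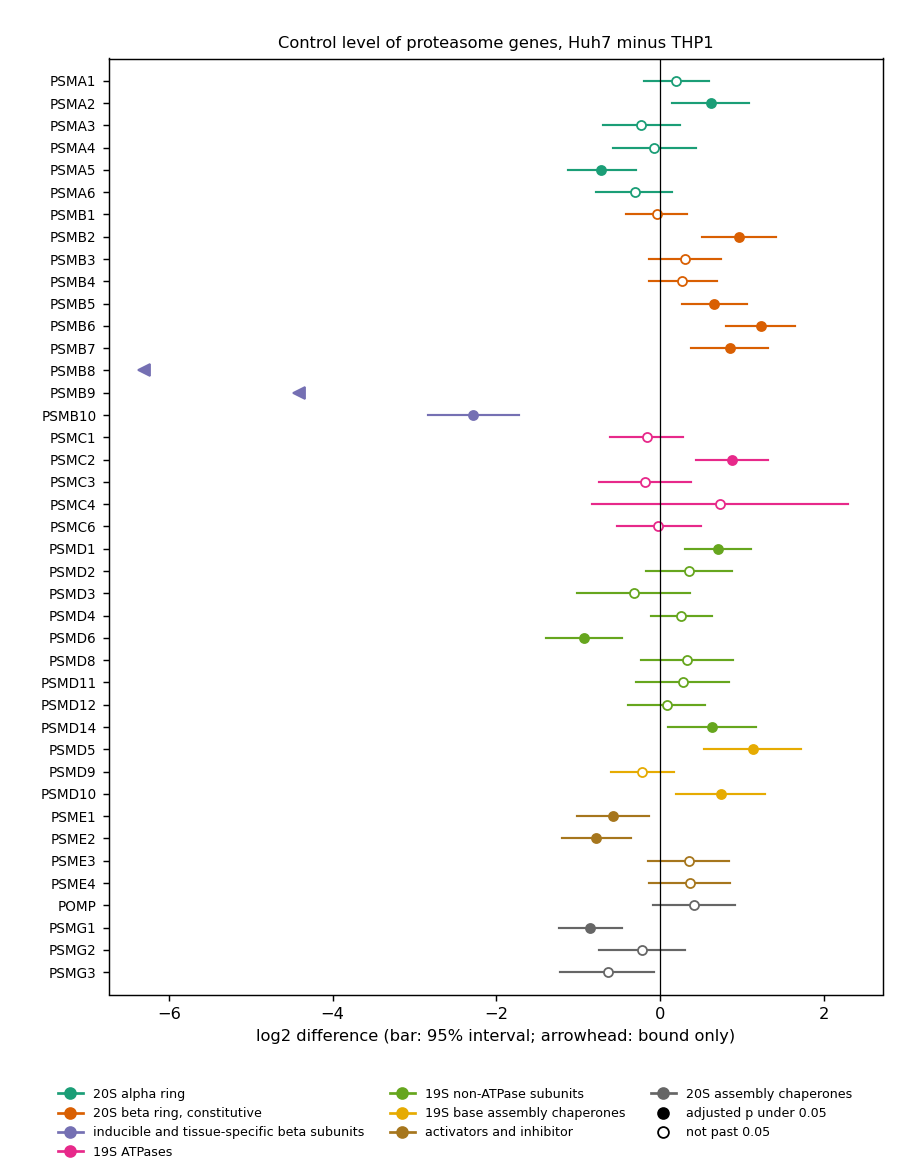
Difference in control level, Huh7 minus THP1 (log2, x axis), for 41 proteasome genes counted by their brightest probe and coloured by role; bars are 95% intervals and filled points have an adjusted p under 0.05. Arrowheads mark PSMB8 and PSMB9, which were near background in Huh7, at their bounds of -6.30 and -4.41. PSMB10 lies at -2.28, and the other genes lie between -0.93 and 1.23.

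Genes around the proteasome were read from lists by role. Of 13 tested genes of interferon signalling and antigen processing, 9 were lower in Huh7 and 1 higher, beside 24.8% of all probes lower and 25.0% higher. Their median was -1.21, beside -0.06 for all probes. The median was also -1.21 with 4 genes dim in Huh7 set at their bounds. TAP1, a subunit of the peptide transporter that carries proteasome products into the endoplasmic reticulum, differed by -4.34 (SE 0.244), and its partner TAP2 by -1.97 (SE 0.443). IRF1, a transcription factor of the interferon response, differed by -1.21 (SE 0.344), B2M, the invariant chain of HLA class I, by -1.46 (SE 0.246) and TAPBP by -2.51 (SE 0.33). HLA-B and IRF7 were detected on all 24 THP1 arrays and 0 Huh7 arrays, and were at least 26.1-fold and at least 6.61-fold higher in THP1 (adjusted p = 5.06e-09 and 6.79e-07). GBP2, an interferon-induced GTPase, was the gene higher in Huh7 (1.36, SE 0.317, adjusted p = 0.00473).

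The counts of the next lists stand beside 25.0% of all probes higher and 24.8% lower. Of 10 genes for ubiquitin shuttles and the p97 unfoldase, 5 were higher in Huh7 and 1 lower, with NSFL1C at 1.73 (SE 0.167) and VCP, the unfoldase itself, at 1.19 (SE 0.242). Of 6 regulators of proteasome genes, 1 was higher and 2 lower. NFE2L2 differed by 1.08 (SE 0.294) and its partner MAFG by -1.25. The probes of another partner, MAFF, disagreed. Probe 1 differed by -1.41 (adjusted p = 0.00153), whereas probe 2 was higher in Huh7 (adjusted p = 0.000917), with detection on 21 Huh7 and 0 THP1 arrays. NFE2L1, the factor that raises proteasome genes when the proteasome is inhibited, read 0.41 (SE 0.194, adjusted p = 0.0999). Of 10 stress chaperones, 2 were higher and 1 lower, with SQSTM1, an autophagy receptor for ubiquitinated cargo, at 2.35 (SE 0.244) and HSPA1A at 2.20 (SE 0.296). Of 9 genes listed as cap partners outside the rule, 1 was higher and 2 lower. The 9 include PSMC3IP, which is not a cap subunit and did not pass (-0.40, adjusted p = 0.211). Of 3 genes of ubiquitin and its activating enzymes 1 was higher (UBB, 0.46, SE 0.171) and 0 lower. Counted by the brightest probe, the share of regulators called was near that of all probes (49.8%). The shares of chaperones, cap partners and ubiquitin genes were below it. For cap partners the share depends on the probe. USP14, ADRM1 and ECPAS did not pass with probe 1. With probe 2 they were higher in Huh7 by 1.06, 0.98 and 1.04 (adjusted p = 0.000551, 0.0266 and 0.0353). ECPAS probe 2 was detected on 5 THP1 arrays. UBE3C and PSMC3IP did not pass with probe 1 or 2.

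The main comparison asked what followed the INTG siRNA. In Huh7, proteasome genes moved little: PSMA1 and 1 probe of PSMG1 rose, PSMD9 and 1 probe of PSME3 fell, by 0.21 to 0.38 on the log2 scale in size. These were 4 of 52 member probes tested, or 7.69%, against 22.3% of all 13878 probes in the same fit. By direction, 3.85% of members rose (beside 10.3% of all probes) and 3.85% fell (beside 12%). The median absolute difference was 0.0687 for members and 0.135 for all probes, with median SEs of 0.072 and 0.082. At an unadjusted p under 0.05 there were 9 member probes and 4932 probes in all. Counted by gene, 1 rose and 1 fell of 39.

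PSMA1, an alpha ring subunit, read 12.22, 12.45, 12.36 and 12.23 with INTG in experiments 1 to 4, 12.18, 11.98, 12.29 and 12.13 with NC1 and 11.98 to 12.06 with NC2. INTG lay above both controls in all 4 experiments, by 0.14, 0.46, 0.18 and 0.18 over their mean, although the ranges of INTG and NC1 overlapped. The difference was 0.24 (SE 0.0715, 95% interval 0.08 to 0.40, adjusted p = 0.032), and probe 2 read 0.16 (adjusted p = 0.164). The call was lost without any one of the 4 experiments, at 0.28, 0.17, 0.26 and 0.26 without experiments 1 to 4. Against NC1 alone PSMA1 did not pass (0.17, adjusted p = 0.174), and against NC2 it did (0.31, adjusted p = 0.0272).

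PSMG1 probe 2 read 8.97, 9.28, 9.06 and 9.10 with INTG, 8.86, 8.79, 8.92 and 8.74 with NC1 and 8.69, 8.91, 8.69 and 8.91 with NC2. All INTG values lay above all control values, and the difference was 0.29 (SE 0.0759, adjusted p = 0.0198). PSMG1 probe 1, the brighter one, read 0.02 (SE 0.0687, adjusted p = 0.844), with -0.14, 0.01, 0.07 and 0.15 in the 4 experiments, so the probes of this gene disagreed. The call of probe 2 was lost without experiment 1 (0.32), 2 (0.24) or 4 (0.29).

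PSMD9, a chaperone of the cap's base, was dim: it was detected on 6 of 8 INTG arrays and on all 16 control arrays. It read 6.73, 6.28, 5.93 and 5.72 with INTG, 6.55, 6.51, 6.46 and 6.41 with NC1 and 6.80, 6.74, 6.55 and 6.36 with NC2. In experiment 1 INTG lay between the controls, and in the others below both. The difference was -0.38 (SE 0.104, adjusted p = 0.0223), and the call was lost without experiment 2 (-0.40), 3 (-0.32) or 4 (-0.29).

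PSME3 probe 2 read 10.16, 9.86, 9.88 and 9.31 with INTG, 10.22, 10.09, 10.04 and 9.71 with NC1 and 10.26, 10.22, 10.14 and 9.48 with NC2. INTG was below both controls in all 4 experiments, while the levels moved more between experiments than between siRNAs. The difference was -0.21 (SE 0.0704, adjusted p = 0.0488), and probe 1 read -0.16 (SE 0.0796, adjusted p = 0.169). The call was lost without any one experiment, at -0.26, -0.19, -0.22 and -0.19 without experiments 1 to 4.

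All 4 calls rest on the experiment as a block: without it, 0 member probes were called. With the brightness of the array as a covariate 0 were called, and the differences were 0.22 for PSMA1, 0.20 for PSMG1 probe 2, -0.13 for PSMD9 and -0.09 for PSME3 probe 2. A common-median scaling moved the median of all tested probes from 0.01 to -0.13 and that of members from 0.01 to -0.17, and turned the split of member calls from 2 higher and 2 lower to 0 higher and 9 lower. Under it PSMA1 read 0.05 and PSMG1 probe 2 0.10, and neither passed (adjusted p = 0.751 and 0.472). Relative to the median of all probes these were 0.18 and 0.23, and PSMD9 and PSME3 probe 2 were -0.32 and -0.28. When INTG was set against NC1 and NC2 singly, 0 of 52 members passed against both, beside 11.2% of all probes.

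The precision of the Huh7 fit set limits on what did not pass. For 50 of the 52 member probes the 95% interval of the INTG difference lay within 0.5 of 0 on the log2 scale, and for 34 within 0.3. The exceptions to the wider limit were PSMD9 and PSMC1 probe 2, whose experiments read 0.68, -0.84, 0.05 and -0.01. The constitutive beta subunits had 0 of 7 genes called, with a range of -0.06 to 0.10. PSMB5 read -0.06 (SE 0.0677), PSMB6 -0.01 (SE 0.0693) and PSMB7 0.03 (SE 0.0699). PSMB10 read -0.04 (SE 0.0968), and PSMB8 and PSMB9 were not tested in Huh7, where they were detected on 0 of 8 INTG arrays with probe 1. POMP read 0.03 (SE 0.0699), with 0.23, 0.04, -0.01 and -0.14 in the 4 experiments.

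The ATPases had 0 of 5 genes called (-0.10 to 0.13), the non-ATPase subunits 0 of 9 (-0.16 to 0.15), the activators 0 of 4 by their brightest probe (-0.16 to 0.00) and the core's assembly factors 0 of 4 (-0.06 to 0.03). The alpha ring had the highest median of the roles, 0.14 beside 0.01 for all probes, with PSMA1 as its 1 call of 6 genes and PSMA2 and PSMA4 at 0.16 each (adjusted p = 0.111 and 0.119). The base chaperones had 1 of 3 genes called, PSMD9, with a range of -0.38 to 0.18. PSMD10 probe 1 gave 0.10, 0.38, 0.00 and 0.27 in the 4 experiments, and probe 2 gave 0.06, 0.43, 0.24 and 0.11. Neither passed in the main fit, and both passed without background correction (adjusted p = 0.0353 and 0.0263).

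PSMD5 lies on the chromosome of the target. In GRCh38.p14 the protein-coding genes run PSMD5, PHF19, TRAF1 and C5 along chromosome 9, so PHF19 and TRAF1 lie between PSMD5 and the targeted transcript. In Huh7 PSMD5 read 8.10, 8.06, 8.90 and 8.46 with INTG, 8.06, 8.12, 8.82 and 8.65 with NC1 and 8.13, 8.13, 8.91 and 8.42 with NC2. The 3 groups overlapped in full, and the difference was -0.03 (SE 0.0659, 95% interval -0.17 to 0.12, adjusted p = 0.817). In THP1 it read 6.88, 6.93, 7.64 and 7.99 with INTG, 6.93, 7.14, 7.59 and 7.46 with NC1 and 6.88, 6.96, 7.62 and 7.64 with NC2. The difference there was 0.09 (SE 0.0983, interval -0.14 to 0.31, adjusted p = 0.638), with the largest gap in experiment 4, whose INTG arrays were dim.

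In THP1 no member probe passed: 0 of 57, beside 0.0444% of all 13524 probes, so almost nothing was called in this fit as a whole. At an unadjusted p under 0.05 there were 5 member probes and 1612 probes in all. Against NC1 and NC2 singly the count was 0, beside 0.00739% of all probes. The 95% interval lay within 0.5 of 0 for 49 of 57 member probes and within 0.3 for 40. The median difference was 0.02 for members and -0.07 for all probes, and the median absolute difference 0.0669 and 0.135. The common-median scaling moved these medians to -0.59 for members and -0.44 for all probes, again with 0 members called.

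The smallest unadjusted p among members in THP1 belonged to PSME3, by both probes. Probe 1 read 9.60, 9.18, 9.64 and 9.14 with INTG, 9.87, 9.55, 10.10 and 9.90 with NC1 and 9.87, 9.68, 9.97 and 9.84 with NC2. INTG was below both controls in all 4 experiments, with differences of -0.27, -0.43, -0.40 and -0.73 from their mean. The fitted difference was -0.46 (SE 0.0822, 95% interval -0.65 to -0.27, unadjusted p = 0.00051, adjusted p = 0.135). Probe 2 read -0.25, -0.21, -0.41 and -0.47 in the 4 experiments and -0.33 in the fit (SE 0.0648, adjusted p = 0.168). Neither passed over all probes. Both passed when only probes detected on all 24 arrays were tested, a smaller family (adjusted p = 0.01 and 0.0165), and with array weights (-0.37 and -0.26, adjusted p = 0.0158 and 0.0332). Without the dim INTG wells of experiment 4 they read -0.37 and -0.29 (adjusted p = 0.0875 and 0.14), so the size was smaller and the sign was the same.

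PSMD9 had the largest difference of any member in THP1, -0.69 (SE 0.313, adjusted p = 0.422), and it came mostly from 1 experiment. It read 6.66, 6.45, 6.57 and 4.63 with INTG, 6.68, 6.57, 6.73 and 6.91 with NC1 and 6.73, 6.79, 7.05 and 6.68 with NC2. The value of 4.63 is from the dim arrays of experiment 4, and PSMD9 was detected on 6 of 8 INTG arrays. PSMB3, a non-catalytic beta subunit, was below both controls in all 4 experiments at -0.22, -0.05, -0.15 and -0.39, and its difference of -0.20 (adjusted p = 0.372) did not pass. PSMD10 probe 2 (0.04, 0.19, 0.50 and 0.31) and PSMC6 probe 1 (0.11, 0.07, 0.15 and 0.28) were above both controls in all 4, and neither passed. PSMD10 probe 1, the brighter one, was above both in 2.

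The immunoproteasome subunits, which THP1 expresses, had no called change with INTG. PSMB8 read 11.80, 11.93, 11.83 and 11.99 with INTG against control levels of 11.83, 11.79, 11.76 and 11.90, a difference of 0.07 (SE 0.0565, 95% interval -0.06 to 0.20). PSMB9 read 9.56, 9.65, 10.05 and 9.78 with INTG, a difference of -0.16 (SE 0.0922, interval -0.37 to 0.06), of which experiment 4 gave -0.50. PSMB10 read 0.01 (SE 0.0605, interval -0.13 to 0.15). PSMB5, PSMB6 and PSMB7 read 0.03, -0.12 and -0.01, and POMP 0.05 (SE 0.0614). None of these 7 genes passed the test.

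**Figure D3:**
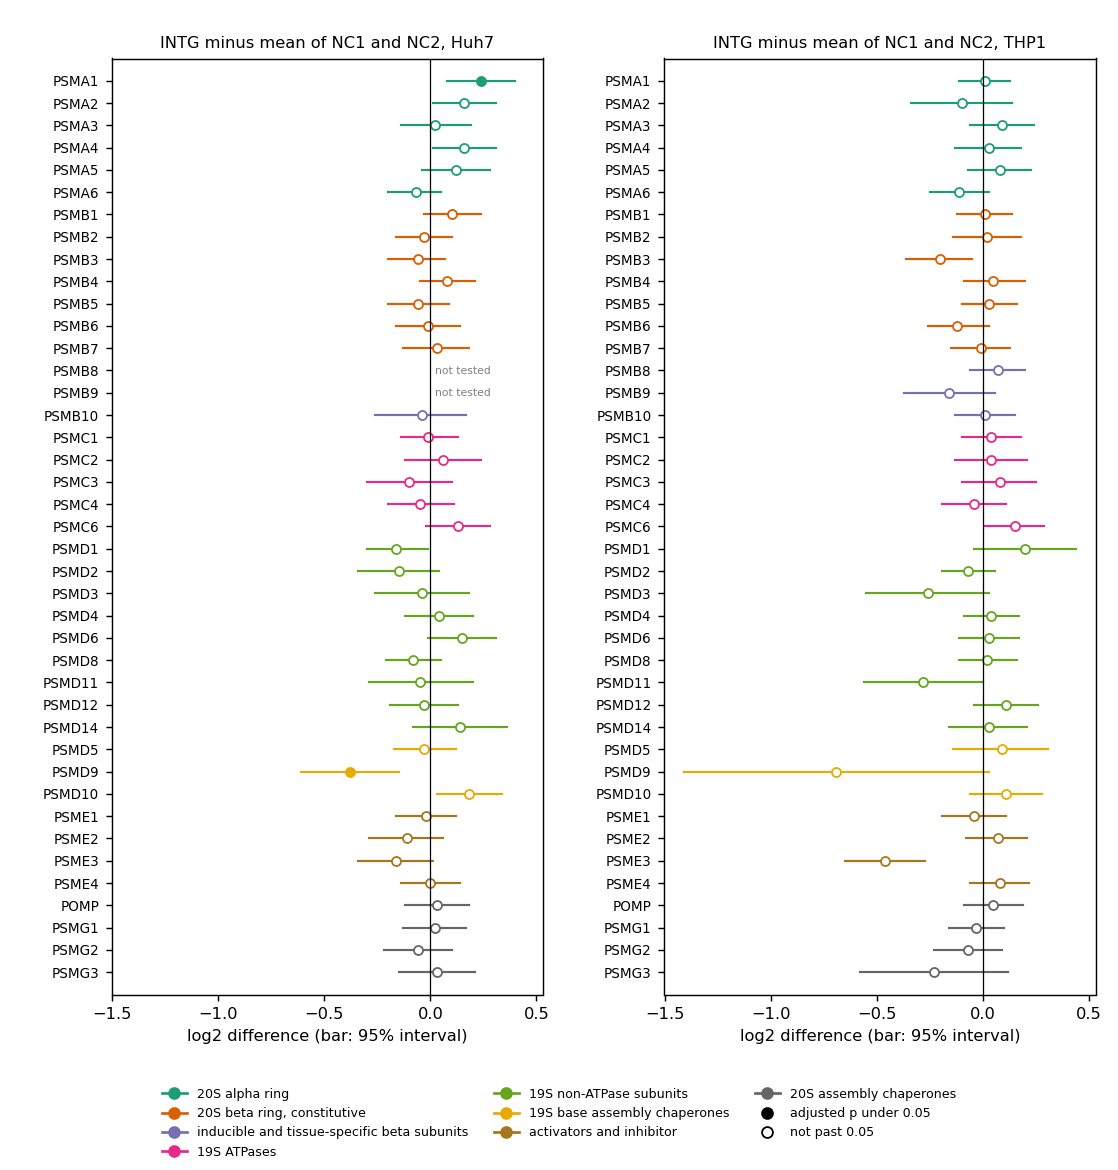
INTG minus the mean control (NC1 and NC2) (log2, x axis) for 41 proteasome genes counted by their brightest probe, in Huh7 (left) and THP1 (right); bars are 95% intervals and filled points have an adjusted p under 0.05. PSMA1 and PSMD9 are the filled points in Huh7, THP1 has none, and PSMB8 and PSMB9 were not tested in Huh7.

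The difference of the INTG effect between the lines was tested directly on 52 member probes. None passed, beside 2.60% of 11542 probes in the joint fit, and 5 member probes had an unadjusted p under 0.05 (2093 in all). The largest were PSMG1 probe 2 (0.35, SE 0.12, adjusted p = 0.137) and PSMD1 (-0.35, SE 0.121, adjusted p = 0.143). PSME3 gave 0.30 with probe 1 (adjusted p = 0.184) and 0.12 with probe 2 (adjusted p = 0.474). PSMA1 gave 0.23 (adjusted p = 0.151). A difference in response between the lines was therefore not shown for any member.

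**Figure D4:**
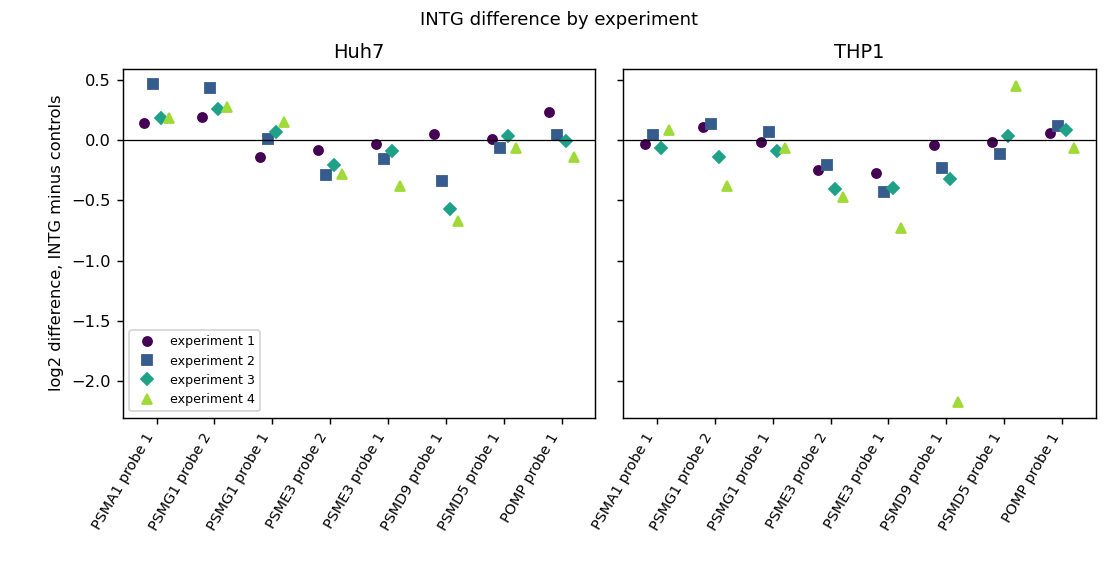
INTG minus the mean control (NC1 and NC2) (log2, y axis) in each of the 4 experiments of Huh7 (left) and THP1 (right), for the probes called in Huh7, the other probe of PSMG1 and of PSME3, PSMD5 and POMP. PSME3 lies below 0 in all experiments of both lines with both probes, and PSMD9 in THP1 experiment 4 stands at -2.17.

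The control siRNAs gave the background. In Huh7, 0 of 52 member probes differed between NC2 and NC1, beside 0.476% of all probes, and in THP1 0 of 57, beside 0%. At an unadjusted p under 0.05 there was 1 member probe in each line, PSMD10 probe 2 in Huh7 (0.26, adjusted p = 0.296) and PSMC1 probe 2 in THP1 (0.40), against 1343 and 237 probes in all. These 2 were chosen after their values were seen. The largest absolute difference between the controls was 0.271 in Huh7, of the size of the INTG calls there, and 0.404 in THP1. The first was PSMD11, whose probe is dim, and the second PSMC1 probe 2, with 1.09 in experiment 1. A difference between 2 single controls is also less precise than INTG minus their mean.

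Genes around the proteasome were read in the same fits, where 22.3% of all Huh7 probes were called. In Huh7, of 10 ubiquitin shuttle and p97 genes, 1 rose and 3 fell: UBQLN2, a shuttle, rose by 0.35 (SE 0.0816, adjusted p = 0.0111), and UFD1, FAF1 and NPLOC4, partners of p97, read -0.32, -0.24 and -0.22 (adjusted p = 0.0162, 0.0145 and 0.0275). VCP read -0.04. Of the 9 genes listed as cap partners, PSMC3IP among them, the thioredoxin-like TXNL1 rose by 0.43 (adjusted p = 0.00974, detected on 14 of 24 arrays). UBE3C, a ubiquitin ligase, read -0.25 (adjusted p = 0.0153). Of 6 regulators, SYVN1, a ligase of the endoplasmic reticulum, was lower (-0.38, adjusted p = 0.00713). NFE2L1 read -0.02 and NFE2L2 0.24 (adjusted p = 0.162).

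Of 10 stress chaperones in Huh7, HSPB1 rose by 0.43 (adjusted p = 0.0082) and 0 fell. HSPB1 also differed between the controls there, by more (NC2 minus NC1 -0.64, SE 0.109, adjusted p = 0.0318). HSPA1A, HSPA1B, HSPH1 and DNAJB1, which rise when the proteasome is blocked, read between -0.09 and 0.03 and did not pass. Of 9 interferon and antigen genes, UBE2L6 rose by 0.49 (adjusted p = 0.00257), and ISG15 and TAP2 were lower (-0.35 and -0.21, adjusted p = 0.0159 and 0.0306). Of 3 ubiquitin and E1 genes none passed. Counted by the brightest probe, the shares called were near or below 22.3% for cap partners, regulators, chaperones and ubiquitin genes. They were above it for shuttle and p97 genes (4 of 10) and interferon and antigen genes (3 of 9). In THP1 no gene of these lists passed, and UBE2L6 was at 0.01 there (difference between lines 0.48, SE 0.111, adjusted p = 0.0326).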

How the data were processed

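Per the file headers, the deposited intensity is each probe's mean bead signal, and the deposited p-value is the authors' detection p for that probe and array. The authors' own processed intensity, in a separate deposited table on a linear scale, served as an alternative. How it was made is not given in the sources used here beyond the names lumi and limma in the submitters' processing notes. Of 48803 probes, 8 blank ones were left out. The platform annotation gives 28098 probes 1 gene symbol, 13 several and 20692 none.

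Background was corrected with neqc (limma 3.58.1, R 4.3.3), which uses the detection p-values, adds 16 and quantile normalizes the 48 arrays to log2 values. Both wells of an experiment were averaged. Per line, limma (lmFit, eBayes) was run with terms for siRNA and experiment, leaving 6 residual degrees of freedom. Benjamini-Hochberg adjustment ran over all tested probes, and 0.05 was the threshold. Experiment served as the block since the design text says that each experiment was a culture passage of its own. Deviations of same-numbered samples correlated at 0.753 to 0.888 in Huh7 and 0.458 to 0.918 in THP1. Samples of different number were not compared, and each slide held 2 experiments. These correlations therefore cannot separate experiment from slide. A joint fit with line, siRNA and experiment gave the difference of INTG effects. Control levels were compared over the mean of NC1 and NC2 per experiment, with slide as a random block (consensus correlation 0.568), among probes tested in at least 1 line. The fits were tested on simulated data. Alternatives changed the block, the background correction, the scaling, the detection filter and the array weights, used the processed table, took array brightness as a covariate, or left out a phase, an experiment or the dim INTG wells of THP1.

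Genes named are the catalytic subunits, POMP, PSMD5, every member called for INTG and the 5 largest called control differences per direction. In the baseline account other called members are also named, chosen after their values were seen. The members and gene lists were chosen with earlier results of these data known. The number of arrays limits the precision. In the fits with experiment as a term, p-values measure how far siRNA differences varied from passage to passage, with shifts of level between passages removed. In the comparison of control levels they measure the spread of levels between passages.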

Additional observations from a re-analysis of the deposited data

Results flagged for a closer look

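In each line, the 4 experiments of every named gene were searched for a value far from the other 3. Of 64 such groups 6 had one, and chance alone flags about 1 in 20 groups. POMP had a THP1 control level of 11.94 in experiment 1, where the others lay between 11.45 and 11.52. PSME3 probe 2 had a THP1 control level of 9.31 in experiment 2, with the others between 9.69 and 9.74. The INTG difference of PSMA1 in Huh7 was 0.46 in experiment 2 and 0.14 to 0.18 in the others. That of PSMB5 was 0.11 in experiment 2 and -0.13 to -0.10 in the others, and that of PSMB2 was 0.06 in experiment 3 and -0.08 to -0.05 in the others. PSMD9 had an INTG difference of -2.17 in THP1 experiment 4, where both INTG arrays were dim, and of -0.32 to -0.04 in the others. The part of array brightness in these values was not tested.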

How the results depend on the processing

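The 4 Huh7 calls for INTG were few and moved with many choices. All 4 stayed called without background correction, where PSMD10 probes 1 and 2 also rose (adjusted p = 0.0353 and 0.0263). PSMA1, PSMD9 and PSMG1 probe 2 stayed called with the authors' processed values. With detection on all 24 arrays PSMA1, PSMG1 probe 2 and PSME3 probe 2 stayed called, and PSMD10 probe 2 rose (adjusted p = 0.0418). No replicate block, slide as the only block, array brightness as a covariate, and experiments 1 and 2 alone each gave 0 called member probes. No detection filter, array weights, and experiments 3 and 4 alone each gave 1. With a common-median scaling 9 were called, all lower, and leaving out single experiments gave 0 to 1. Against NC1 and NC2 singly, where 0 had passed, the count was 2 without background correction, 4 with the common median and 1 with detection on all 24 arrays, and leaving out single experiments gave 0 to 1 (1 without experiment 1). In THP1 the count of 0 became 2 under array weights, 2 where all 24 arrays had to detect a probe and 1 in experiments 1 and 2 alone, every one a PSME3 probe, and against both controls singly 1 with detection on all 24 arrays. The 24 baseline calls became 5 with the common median and stayed between 19 and 28 under the other alternatives run. NC2 against NC1 in both lines and the difference between lines stayed at 0 called members under all alternatives run. No called difference changed sign, and 62 of 680 alternative values of named genes changed the sign of a difference that had not been called. The fewer tests of the stricter detection filter make its adjusted p smaller, and for the other shifts the cause was not tested. Probes near background, such as PSMD9, PSMB9 probe 2 and PSMD11, limit what can be read of them.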
